A study of Mus musculus with 25 samples.

Results

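The open chromatin of 10 genes that carry the TGF-beta signal was followed in allospecific CD8+ T cells: the ligand gene Tgfb1, the receptor genes Tgfbr1, Tgfbr2 and Tgfbr3, the Smad genes Smad2, Smad3, Smad4 and Smad7, and the corepressor genes Ski and Skil. A peak of the count table was a member if its midpoint had one of these genes as the nearest protein-coding gene start (GENCODE vM39, genome build GRCm39) or lay in the body of one. The rule used only positions and took 52 of the 13527 peaks. Smad7 had 16 of them, Tgfbr2 13, Ski 8, Smad3 5, Smad4 3 and Skil 3, and Tgfb1, Tgfbr1, Tgfbr3 and Smad2 had 1 each. No member rested on the gene body alone. Such a name does not show that a peak acts on that gene.

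ATAC-seq, in which a transposase cuts open DNA, was run on CD8+ T cells from the spleen and lymph nodes of individual young adult C57BL/6 females. Sorting used an OVA:Kb tetramer, which binds the T cells that see an antigen of 2W-OVA.BALB/c males, carried by their skin and by the fetuses they sire. These cells are called TFGS (fetus/graft-specific T cells). Naive females had received no treatment (3 libraries) and Sensitized females an allogeneic skin graft (4 libraries). N+P females had a semi-allogeneic pregnancy, and S+P females had the graft followed by such a pregnancy. Cells of pregnant females were sorted in the first days after delivery by 2 surface proteins, PD1, an inhibitory receptor, and CD73, an enzyme encoded by Nt5e. Sensitized cells were taken a month or more after the graft. N+P C1 (PD1-) and N+P C5 (PD1+CD73+) had 3 libraries each, and S+P C4 (PD1-), S+P C5 (PD1+CD73+) and S+P C7 (PD1+CD73-) had 4 each. The females share the strain and carry no label of a genotype. Because each library came from a pool of sorted cells, fewer cells with an open site and less opening per cell cannot be told apart. The labels name no PD1 or CD73 gate for Naive or Sensitized, so pregnancy and the gate cannot be told apart where a sorted subset is compared with them.

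TGF-beta is a cytokine that restrains T cell proliferation and effector function. The type II receptor (Tgfbr2) binds the ligand and phosphorylates the type I receptor (Tgfbr1), which phosphorylates Smad2 and Smad3. These join Smad4 in the nucleus and bind DNA. Smad7 is an inhibitory Smad that the signal itself induces and that blocks the receptors. Ski and Skil (SnoN) hold Smad complexes in a repressive state, and Tgfbr3 (betaglycan) is a coreceptor that presents the ligand.

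Total counts per library ranged from 2430890 to 25419715 (median 8197552), and the median raw count of the 52 peaks in a library ranged from 142 to 1238, with 10 as the lowest count of any member. Of 7 CD8 T cell marker genes, 6 had a promoter peak (Cd2 had none). The lists for B cells (5 genes), myeloid cells (5) and NK cells (2) had none. Cd4 had no promoter peak, and the peak at Foxp3 also lay within 1000 bp of a transcript start of Ppp1r3f and held 643 to 885 normalized reads across libraries. No promoter peak of Pdcd1 was in the table. The Nt5e promoter held 198 to 304 normalized reads in S+P C7 and 371 to 419 in S+P C5, the order in which the CD73 gate sorts them. It held 436 to 536 in N+P C5, 394 to 454 in N+P C1, 301 to 399 in Naive, 334 to 494 in Sensitized and 296 to 378 in S+P C4. S+P C5 thus overlapped Naive, N+P C1, Sensitized and S+P C4, whose labels name no CD73 gate. By correlation over all peaks, Sensitized replicates 3 and 4 lay nearest to N+P C5, Sensitized replicate 1 to S+P C4 and Naive replicate 3 to N+P C1. The shallowest library, S+P C4 replicate 1, also lay nearest to N+P C5. The group nearest to S+P C4 replicate 3 was S+P C7, that nearest to S+P C7 replicate 1 was S+P C5, and N+P C1 and N+P C5 were mixed. Calls against Sensitized or of Sensitized against Naive are given below with and without Sensitized replicates 3 and 4.

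Below, a peak is named by its gene and the distance of its midpoint from the gene start, negative upstream, or as the promoter peak if the midpoint lay within 1000 bp of a transcript start of the gene. Normalized read counts are raw counts divided by the DESeq2 size factor. Adjusted p values are those of the DESeq2 Wald test with Benjamini-Hochberg adjustment over all peaks, and calls (opening or closing) needed both an adjusted p below 0.1 and a log2 fold change beyond 0.9 in either direction. The word fell or rose is used only of called peaks.

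The sequences of 5 closing peaks at Tgfbr2 and Ski are printed because they had the smallest adjusted p among the intergenic and intronic peaks of these genes. Each is the central 300 bp of the peak on the plus strand of GRCm39, in lower case, with matches to 8 searched motif strings in capitals on either strand: AP-1 TGANTCA, SMAD CAGACA and GTCTAGAC, TCF/LEF CTTTGAT, RUNX TGTGGTT, ETS AGGAAGTG, NFAT GGAAAA and T-box GGTGTGA.
Ski 25.1 kb, chr4:155282307-155282606: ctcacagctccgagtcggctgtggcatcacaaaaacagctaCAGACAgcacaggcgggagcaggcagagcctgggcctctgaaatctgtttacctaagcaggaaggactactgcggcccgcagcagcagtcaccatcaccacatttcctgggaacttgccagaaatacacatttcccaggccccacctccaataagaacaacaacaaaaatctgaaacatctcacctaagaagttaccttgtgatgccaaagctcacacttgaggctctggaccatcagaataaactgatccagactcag
Tgfbr2 -193.5 kb, chr9:116198173-116198472: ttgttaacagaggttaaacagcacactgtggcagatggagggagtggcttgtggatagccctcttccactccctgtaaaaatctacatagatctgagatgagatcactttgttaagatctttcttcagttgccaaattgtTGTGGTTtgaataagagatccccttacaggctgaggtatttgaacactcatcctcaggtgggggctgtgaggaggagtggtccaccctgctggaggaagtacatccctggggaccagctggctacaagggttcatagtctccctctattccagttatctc
Tgfbr2 -118.6 kb, chr9:116123251-116123550: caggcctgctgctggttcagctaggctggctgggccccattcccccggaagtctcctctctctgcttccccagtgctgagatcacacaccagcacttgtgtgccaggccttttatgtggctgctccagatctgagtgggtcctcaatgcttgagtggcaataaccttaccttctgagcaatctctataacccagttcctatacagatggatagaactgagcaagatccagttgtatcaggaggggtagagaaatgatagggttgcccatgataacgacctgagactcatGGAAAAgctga
Tgfbr2 -11.9 kb, chr9:116016540-116016839: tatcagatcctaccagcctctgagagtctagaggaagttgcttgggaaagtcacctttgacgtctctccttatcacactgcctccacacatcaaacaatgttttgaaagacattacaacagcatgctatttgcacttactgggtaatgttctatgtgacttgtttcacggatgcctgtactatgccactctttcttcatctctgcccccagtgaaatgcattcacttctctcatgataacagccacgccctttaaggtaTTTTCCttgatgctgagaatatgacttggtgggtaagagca
Tgfbr2 52.6 kb, chr9:115952022-115952321: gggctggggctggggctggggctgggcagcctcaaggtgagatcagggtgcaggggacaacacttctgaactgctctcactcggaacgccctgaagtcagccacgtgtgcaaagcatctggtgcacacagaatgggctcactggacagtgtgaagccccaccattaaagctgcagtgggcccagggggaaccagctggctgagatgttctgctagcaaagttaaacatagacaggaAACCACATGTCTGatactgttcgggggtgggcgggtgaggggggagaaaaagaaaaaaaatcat
The Ski intron window held the SMAD string CAGACA. The Tgfbr2 -193.5 kb window held the RUNX string, and the Tgfbr2 52.6 kb window held the RUNX and SMAD strings side by side, both on the minus strand. The windows at Tgfbr2 -118.6 kb and -11.9 kb held the NFAT string once each. Among the 18 members that closed in S+P C5 or S+P C7 against Sensitized, 7 windows held CAGACA, against 13 of the other 28 members outside promoters and 28.8% of all 5857 peaks outside promoters. RUNX TGTGGTT was in 4 of 18 and 8 of 28 (20.1% of all), NFAT GGAAAA in 3 and 7 (23.9%), AP-1 TGANTCA in 1 and 4 (15.8%), ETS AGGAAGTG in 1 and 4 (11.9%) and TCF/LEF CTTTGAT in 1 and 0 (7.21%). T-box GGTGTGA was in 0 and 2 (7.72%) and the palindrome GTCTAGAC in 0 and 0 (0.324%). A match is a description of these letters, not a binding site.

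Of the 52 peaks, 6 were promoter peaks (Tgfbr1, Tgfbr2, Smad2, Smad4, Ski and Skil), 26 lay in introns, 19 between genes and 1 in an exon (Tgfb1 2.4 kb). The table analysed here held no peak within 1000 bp of a transcript start of Tgfb1, Tgfbr3, Smad3 or Smad7, and the Smad3 -1.0 kb peak lay just outside that limit. Of the 52, 20 were called in at least 1 of 10 comparisons and 32 in none. That is 38.5% of members, against 22% of all peaks. Outside promoters it is 43.5% of members, against 44.3% of all peaks there. All 20 lay outside promoters (13 in introns, 7 between genes): Smad7 had 8, Tgfbr2 6, Ski 3, Smad4 2 and Tgfbr3 1. No peak of Tgfb1, Tgfbr1, Smad2, Smad3 or Skil was called. The plot of all members by group shows rows that stay near 0 and a smaller set with its lowest signal in S+P C5 or S+P C7. Other rows had higher means in the groups that had a graft. Smad7 -151.7 kb showed the largest such difference, and Smad7 79.9 kb and 87.9 kb were among those with smaller ones.

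**Figure D1:**
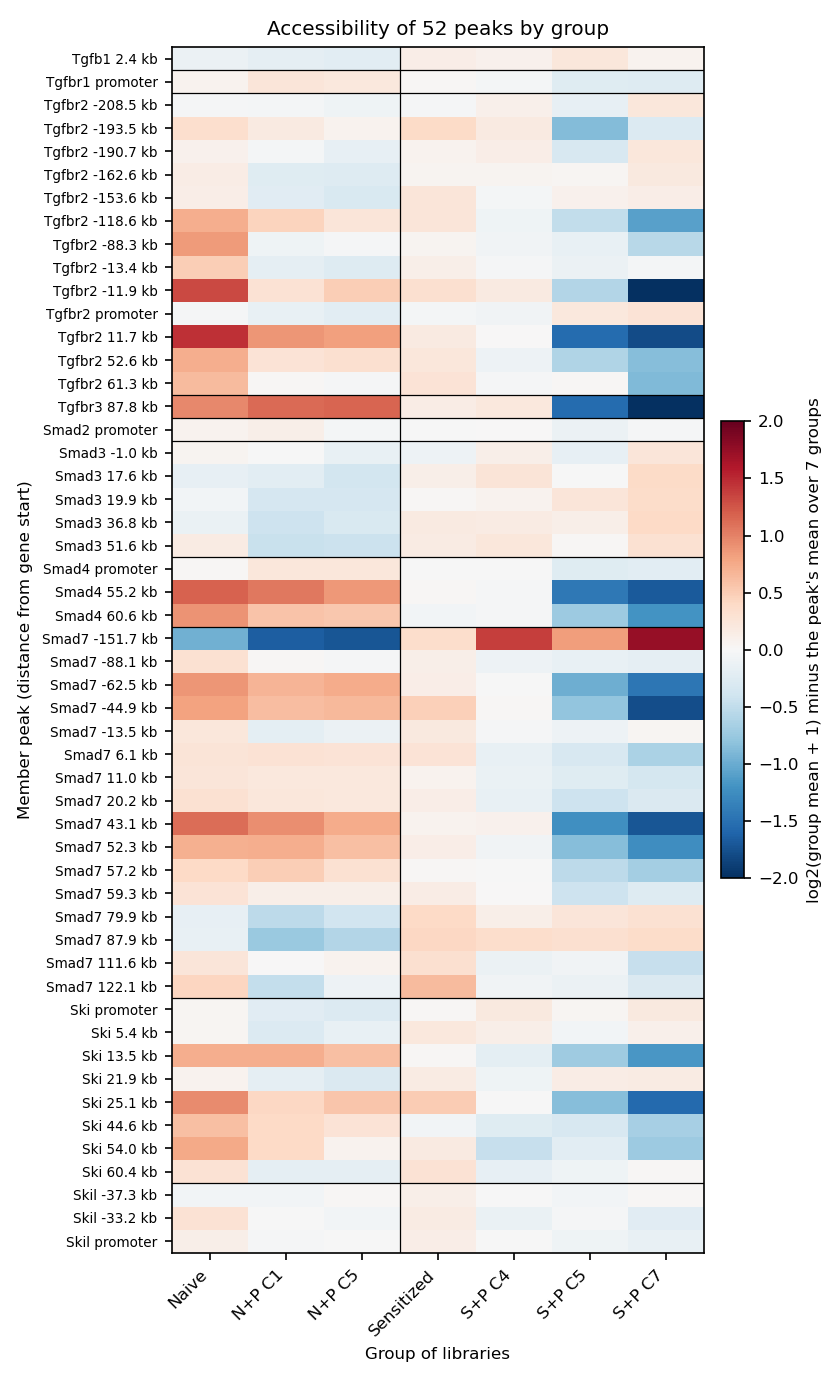
Colors give log2 of the group mean (normalized read count plus 1) minus the mean of that value over the 7 groups, for the 52 peaks (rows, by gene and distance from the gene start) in each group (columns); colors saturate at 2 in either direction. The Tgfbr3 peak and some of the peaks at Tgfbr2, Smad4, Smad7 and Ski are blue in the columns of both PD1+ S+P groups. The 6 promoter rows stay pale. Smad7 -151.7 kb runs the other way, as do, with smaller differences, rows such as Smad7 79.9 kb and 87.9 kb.

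To ask what the graft alone did, Sensitized was compared with Naive. Of the members, 1 opened and 4 closed. Over all 13527 peaks 7.22% opened and 1.40% closed, and no test compared the members with these shares. The closing peaks were Tgfbr2 -11.9 kb, Tgfbr2 11.7 kb, Smad4 60.6 kb and Smad7 43.1 kb, and the opening peak was Smad7 -151.7 kb. The median log2 fold change of the 52 was -0.09, against -0.01 over all peaks. Of peaks outside promoters, 10.9% of 46 members were called, against 18.4% of all. With Sensitized replicates 3 and 4 left out, 3 members opened (9.44% of all peaks) and 9 closed (5.73% of all).

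To ask what pregnancy did in cells that had not met the antigen before, N+P C1 and N+P C5 were compared with the same Naive libraries. No member was called by DESeq2 or by edgeR in either comparison. In N+P C1 0% of tested peaks opened and 0.0205% closed, and in N+P C5 0.0262% opened and 0% closed. The independent filter left an adjusted p for 19 members in N+P C1 and for 14 in N+P C5. At an unadjusted p under 0.05 there were 15 members in N+P C1 (28.8%, against 19% of all peaks) and 14 in N+P C5 (26.9%, against 17.5%). Without the filter, Tgfbr2 -88.3 kb and Smad7 122.1 kb were called closing in N+P C1. The medians of the 52 were -0.24 and -0.29, against -0.02 and 0.00 over all peaks, and 44 and 47 of the 52 had a negative sign (84.6% and 90.4%, against 53% and 50% of all peaks).

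To ask what pregnancy did in cells that had already responded to the graft, the S+P subsets were compared with the same Sensitized libraries. In S+P C4, 1 member opened (0.562% of all peaks) and 0 closed (0.296% of all). In S+P C5, 0 members opened (3.08% of all) and 10 closed (3.67% of all). In S+P C7, 1 opened (3.84% of all) and 17 closed (8.03% of all). In the same order the median of the 52 was -0.14, -0.28 and -0.35, where all peaks had -0.02, -0.01 and 0.00. Of peaks outside promoters alone, 21.7% of 46 members and 14.7% of all were called in S+P C5, and 39.1% and 24.6% in S+P C7. In S+P C4 these shares were 2.17% and 1.93%. These comparisons use the same Sensitized libraries. With Sensitized replicates 3 and 4 left out, S+P C5 had 5 closing members (1.09% of all peaks) and S+P C7 had 13 (4.93% of all). The peaks called with and without them in S+P C5 were Tgfbr2 -193.5 kb, Smad7 -44.9 kb, Smad7 43.1 kb and Ski 25.1 kb.

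The remaining comparisons set the pregnancy subsets against each other. In S+P C5 against N+P C5, which differ by the graft before pregnancy, 2 members opened (10.3% of all peaks) and 13 closed (6.97% of all). This comparison shares the S+P C5 libraries with the one against Sensitized. In S+P C5 against S+P C4, 0 opened (3.12%) and 6 closed (2.00%). In S+P C7 against S+P C5, 1 opened (0.266%) and 3 closed (2.11%). The interaction, which subtracts N+P C5 minus Naive from S+P C5 minus Sensitized, was called upward for 1 member (3.04% of all peaks) and downward for 6 (2.93%). Outside promoters, the called shares of members and of all peaks were 32.6% and 35.4% in S+P C5 against N+P C5. They were 13% and 11.2% in S+P C5 against S+P C4, 8.70% and 5.14% in S+P C7 against S+P C5, and 15.2% and 11.2% in the interaction. Without Sensitized replicates 3 and 4 the downward interaction calls were 2 (0.954% of all peaks), Tgfbr2 -193.5 kb and Smad7 -44.9 kb.

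The only peak assigned to the ligand gene Tgfb1, also outside the naming rule, lay at 2.4 kb over an exon (chr7:25388097-25389457). It held 690.2, 724 and 542 normalized reads in Naive, 994, 811, 653 and 645 in Sensitized, 603, 609 and 631 in N+P C5 and 728, 1010.2, 857 and 724 in S+P C5. Every S+P C5 library exceeded those of N+P C5, by 0.43 on the log2 scale (SE 0.15, adjusted p = 0.0124), under the fold limit. It was called in no comparison.

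The promoter peaks of both signaling receptors held reads in every library, and neither was called. In the group peak lists of the authors, the Tgfbr1 promoter overlapped all but that of S+P C4, and the Tgfbr2 promoter overlapped those of Sensitized and of both PD1+ S+P groups alone. The Tgfbr1 promoter (chr4:47351324-47354274) averaged 1268 ± 97.4 (SD, n = 3) normalized reads in Naive, 1231 ± 128 (n = 4) in Sensitized, 1022 ± 55 (n = 4) in S+P C5 and 1012 ± 33.4 (n = 4) in S+P C7. Against Sensitized its log2 difference was -0.27 (SE 0.11, adjusted p = 0.0487) in S+P C5 and -0.28 (SE 0.11, adjusted p = 0.0214) in S+P C7. The Tgfbr2 promoter (chr9:116003538-116005252) differed the other way: it held 793, 764, 699 and 727 in Sensitized, 813, 977, 819.6 and 937 in S+P C5, and 899.9, 953, 936 and 898 in S+P C7. Both S+P subsets lay above Sensitized in every library, by 0.24 (SE 0.08, adjusted p = 0.0208) and 0.30 (SE 0.08, adjusted p = 0.00143) on the log2 scale, and N+P C5 was exceeded by S+P C5 by 0.42 (SE 0.09, adjusted p = 4.19e-05). Per kb of peak, the Tgfbr2 promoter level in S+P C5 was 517 normalized reads and that of Tgfbr1 346.

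**Figure D2:**
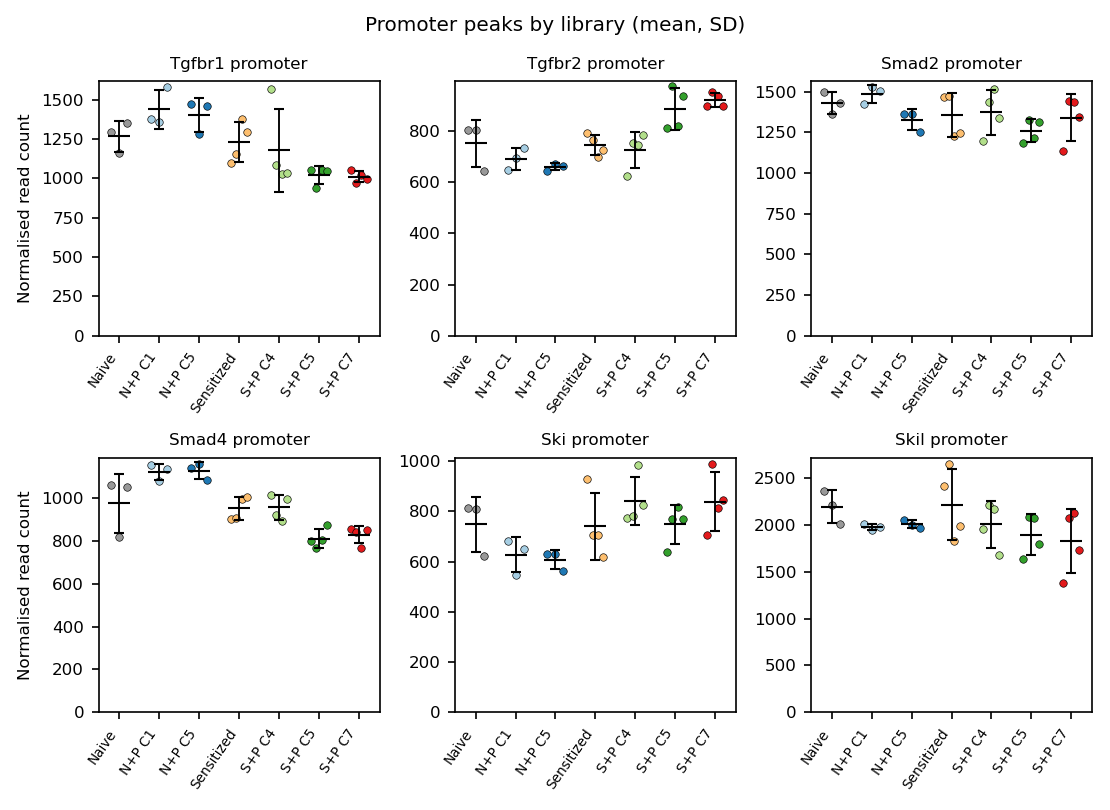
Normalized read count (vertical axis, from 0) in each library (points) at the 6 promoter peaks, by group, with the group mean and SD as bars. The Tgfbr2 promoter sits at 813 or more in all 8 S+P C5 and S+P C7 libraries and at 805 or less in every other library, and no promoter peak was called in any comparison.

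Upstream of Tgfbr2, a peak at -193.5 kb lost signal most in S+P C5. This intergenic peak (chr9:116197862-116198783) held 884, 917 and 871 normalized reads in Naive, 707, 778 and 895 in N+P C1, and 647, 721 and 838 in N+P C5. It held 939.7, 942, 898 and 881 in Sensitized, 664, 815, 813 and 898 in S+P C4, then 357, 306, 422 and 448 in S+P C5, and 433, 417, 701 and 786 in S+P C7. All 4 S+P C5 libraries lay below every library of the Naive, N+P, Sensitized and S+P C4 groups, while S+P C7 split into replicates 1 and 2 near S+P C5 and replicates 3 and 4 near N+P C5.

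Tgfbr2 -193.5 kb fell 2.38-fold in S+P C5 against Sensitized (log2 fold change -1.25, SE 0.16, adjusted p = 5.81e-12; -1.29 without Sensitized replicates 3 and 4). It fell against S+P C4 (-1.06, SE 0.17, adjusted p = 2.64e-08) and against N+P C5 (-0.94, SE 0.18, adjusted p = 1.43e-06). The last call sits near the fold limit and was lost, below that limit in size, when N+P C5 replicate 3 (-0.83), S+P C5 replicate 1 (-0.90) or S+P C5 replicate 2 (-0.85) was left out, and under other scalings (-0.88 with total-count size factors and -0.87 with loess offsets). In S+P C7 against Sensitized the difference was -0.64 (SE 0.16, adjusted p = 0.000494), under the fold limit. S+P C7 lay above S+P C5 by 0.61 (SE 0.17, adjusted p = 0.00859), also under it. The graft alone gave a difference of 0.04 (SE 0.18, adjusted p = 0.926).

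The other called Tgfbr2 peaks were lowest in S+P C7. The intergenic Tgfbr2 -118.6 kb peak (chr9:116122935-116123866) held 343, 381, 443 and 405 normalized reads in Sensitized, 249, 189.8, 293 and 214 in S+P C5 and 191, 167, 136 and 129.7 in S+P C7. It fell in S+P C7 (-1.34, SE 0.21, adjusted p = 4.4e-09; -1.22 without Sensitized replicates 3 and 4), with no overlap with Sensitized. The S+P C5 difference of -0.73 (SE 0.20, adjusted p = 0.00381) was under the fold limit.

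The intergenic Tgfbr2 -11.9 kb peak (chr9:116016443-116016936) held 428, 483 and 279 normalized reads in Naive, 132, 130.2, 279.8 and 246 in Sensitized, 114, 127, 118 and 61.9 in S+P C5, and 68, 39.2, 19.9 and 26.7 in S+P C7. Every S+P C7 library lay below every Sensitized library. It fell in S+P C7 against Sensitized (-2.34, SE 0.38, adjusted p = 2.9e-08; -1.75 without Sensitized replicates 3 and 4) and against S+P C5 (-1.43, SE 0.39, adjusted p = 0.00758). Its fall in S+P C5 against Sensitized was close to both limits (-0.91, SE 0.37, adjusted p = 0.0539) and was lost without Sensitized replicates 3 and 4 (-0.32, adjusted p = 0.736), without either one alone (-0.69 without replicate 3 and -0.78 without replicate 4), without S+P C5 replicate 4 (-0.72) and with total-count size factors (-0.89). Its fall in Sensitized against Naive (-1.01, SE 0.39, adjusted p = 0.0592) was lost with the replicate block (-0.79, adjusted p = 0.163) and without any of Naive replicates 1 and 2 and Sensitized replicates 1 and 2 (-0.95, -0.84, -0.86 and -0.86). It was -1.60 (adjusted p = 0.00145) without Sensitized replicates 3 and 4.

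In the introns of Tgfbr2, the 52.6 kb peak (chr9:115951765-115952579) held 363, 428, 412 and 382 normalized reads in Sensitized, 209, 269, 229.5 and 181 in S+P C5 and 181, 249, 164 and 153 in S+P C7. Neither S+P subset overlapped Sensitized. It fell in S+P C7 (-1.10, SE 0.20, adjusted p = 7.17e-07; -1.09 without Sensitized replicates 3 and 4) and against N+P C5 in S+P C5 (-0.92, SE 0.21, adjusted p = 8.21e-05), the second call lost below the fold limit with the replicate block (-0.84), with total-count size factors (-0.87) and without N+P C5 replicate 2 or 3 or S+P C5 replicate 1 or 4 (-0.87, -0.83, -0.89 and -0.84). Its difference between S+P C5 and Sensitized was -0.84 (SE 0.20, adjusted p = 0.000396).

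A pair of called Tgfbr2 intron peaks fell outside the naming rule and are given after their values were seen. Tgfbr2 11.7 kb held 89.4, 77.7, 278 and 271 normalized reads in Sensitized, 95.8, 27.6, 44.6 and 46.3 in S+P C5 and 223, 306 and 308 in N+P C5. Sensitized replicates 1 and 2 lay among the S+P C5 values and replicates 3 and 4 among the N+P C5 values. Its log2 fold change was -1.71 (SE 0.41, adjusted p = 0.000644) in S+P C5 against Sensitized and -2.35 (SE 0.45, adjusted p = 1.25e-06) against N+P C5, and the first came to -0.60 (adjusted p = 0.435) without Sensitized replicates 3 and 4. Tgfbr2 11.7 kb was also called in Sensitized against Naive, where it came to -2.38 (adjusted p = 2.39e-07) without those 2 libraries, but was not called without Naive replicate 2 (-1.20, adjusted p = 0.122) or Sensitized replicate 2 (-1.04, adjusted p = 0.116). In S+P C7 against Sensitized it was called, and without Sensitized replicates 3 and 4 it was not (-0.87, adjusted p = 0.126). Tgfbr2 61.3 kb held 238, 246, 287 and 253 in Sensitized, 243, 233, 195 and 190.3 in S+P C5 and 156, 100.4, 101 and 100.4 in S+P C7, and it fell in S+P C7 against Sensitized (-1.15, SE 0.22, adjusted p = 3.38e-06; -1.07 without Sensitized replicates 3 and 4).

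**Figure D3:**
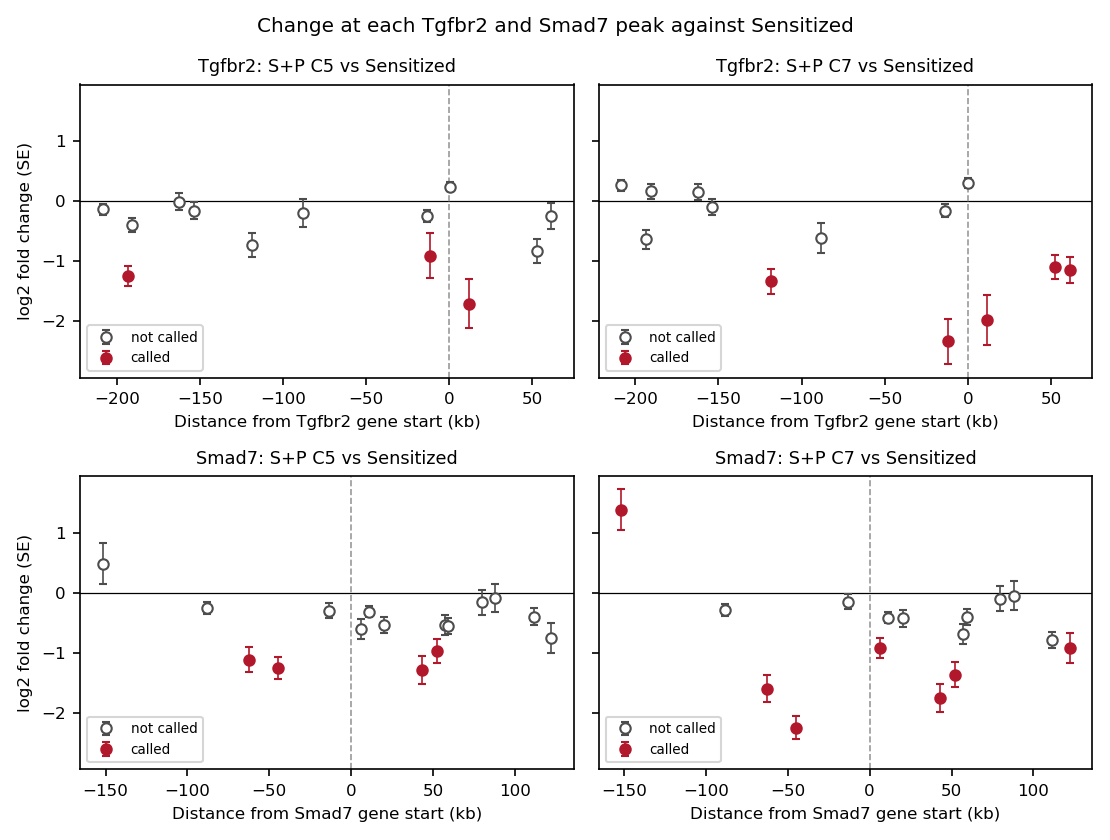
Log2 fold change with its SE (vertical axis) at each peak assigned to Tgfbr2 (top) and Smad7 (bottom) against distance from the gene start in kb (horizontal axis; dashed line, the start; negative, upstream), for S+P C5 (left) and S+P C7 (right) against Sensitized; filled points were called. Called peaks flank both starts and lie below 0 except Smad7 -151.7 kb in S+P C7, and the Tgfbr2 promoter lies just above 0.

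The coreceptor gene Tgfbr3 had 1 peak, in an intron at 87.8 kb (chr5:107349417-107350200). It held 333, 403 and 363 normalized reads in Naive, 396, 432 and 424 in N+P C1 and 427, 424 and 428 in N+P C5. It held 65.2, 103, 341 and 327 in Sensitized, 374, 219, 103 and 174 in S+P C4, then 113, 47.4, 27.7 and 68.7 in S+P C5 and 91, 17, 23.2 and 45.1 in S+P C7. All S+P C5 and S+P C7 libraries lay below all Naive and N+P libraries, and Sensitized spanned both ranges.

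Tgfbr3 87.8 kb fell 6.56-fold in S+P C5 against N+P C5 (-2.71, SE 0.52, adjusted p = 2.01e-06), a comparison without Sensitized libraries, and fell against S+P C4 with overlapping values (-1.73, SE 0.49, adjusted p = 0.00697). Against Sensitized it was called in S+P C5 (-1.69, SE 0.49, adjusted p = 0.00545) and S+P C7 (-2.22, SE 0.49, adjusted p = 6.04e-05). Without Sensitized replicates 3 and 4 these were -0.36 (adjusted p = 0.746) and -0.88 (adjusted p = 0.207), and neither was called.

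The receptor-regulated Smads showed no called peak. The Smad2 promoter (chr18:76373752-76375705) held 1430.4 ± 64.9 normalized reads (SD, n = 3) in Naive, 1355 ± 136 (n = 4) in Sensitized, 1260.3 ± 71.5 (n = 4) in S+P C5 and 1339 ± 144 (n = 4) in S+P C7, and its lowest adjusted p over the 10 comparisons was 0.347. At the 5 Smad3 peaks, the log2 differences in S+P C7 against Sensitized ran from 0.13 to 0.36, and in S+P C5 against N+P C5 from -0.01 to 0.59. The highest of these, outside the naming rule and picked after its values were seen, was Smad3 19.9 kb (chr9:63644689-63646490), with 812, 1134, 813 and 871 in S+P C5 and 535, 648 and 626 in N+P C5 (0.59, SE 0.16, adjusted p = 0.00119), under the fold limit.

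At Smad4, the partner shared by all signaling Smads, the promoter and the introns differed. The promoter (chr18:73835531-73837642) averaged 954 ± 54.6 normalized reads (SD, n = 4) in Sensitized, 812 ± 45.7 (n = 4) in S+P C5 and 829.9 ± 41.2 (n = 4) in S+P C7. Its log2 difference in S+P C5 was -0.23 (SE 0.08, adjusted p = 0.0163) against Sensitized and -0.47 (SE 0.08, adjusted p = 1.65e-07) against N+P C5, where the 1141, 1161 and 1086 reads lay above every S+P C5 library. Both were under the fold limit.

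The Smad4 55.2 kb intron peak (chr18:73781414-73781946) held 343, 346 and 324 normalized reads in Naive, 216, 270.0 and 329 in N+P C5, 54.8, 76.1, 237 and 239 in Sensitized, 93.6, 62.8, 22.7 and 38.8 in S+P C5, and 82.5, 23.8, 34.8 and 42.6 in S+P C7. Sensitized replicates 1 and 2 lay within the S+P C5 values and replicates 3 and 4 within those of N+P C5. It fell 4.96-fold in S+P C5 against N+P C5 (-2.31, SE 0.51, adjusted p = 3.93e-05). Against Sensitized it was called in S+P C5 (-1.47, SE 0.48, adjusted p = 0.0142) and S+P C7 (-1.71, SE 0.48, adjusted p = 0.00179), and without Sensitized replicates 3 and 4 in neither (-0.25, adjusted p = 0.836, and -0.48, adjusted p = 0.536). Without Sensitized replicate 4 alone the S+P C5 value was -1.16 (adjusted p = 0.111). Its call against S+P C4 (-1.39, SE 0.48, adjusted p = 0.0388) was lost without S+P C4 replicate 1 or 2 or S+P C5 replicate 3 or 4 (-1.08, -1.18, -1.13 and -1.26) and in edgeR (-1.36, adjusted p = 0.101).

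The Smad4 60.6 kb intron peak (chr18:73775991-73776726) held 179, 243, 537 and 506 normalized reads in Sensitized, 301, 259, 186 and 169 in S+P C5 and 449.8, 556 and 657 in N+P C5. S+P C5 lay below N+P C5 in every library (-1.28, SE 0.36, adjusted p = 0.0012) and overlapped Sensitized. In S+P C7 it was called against Sensitized (-1.15, SE 0.33, adjusted p = 0.0024), and not without Sensitized replicates 3 and 4 (-0.35, adjusted p = 0.510). Its call in Sensitized against Naive (-0.94, SE 0.35, adjusted p = 0.0491) was lost with the replicate block (-0.88, adjusted p = 0.145) and without Naive replicate 1, 2 or 3 (-0.93, -0.93 and -0.96) or Sensitized replicate 1 or 2 (-0.71 and -0.79). It was -1.74 (adjusted p = 9.22e-06) without Sensitized replicates 3 and 4.

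Smad7, the inhibitory Smad, held the member peak with the smallest adjusted p. Smad7 -44.9 kb, between genes (chr18:75455037-75455826), held 623, 594 and 556 normalized reads in Naive, 500.0, 526 and 528 in N+P C1 and 535, 588 and 467 in N+P C5. It held 480.5, 411, 477 and 517 in Sensitized, 466, 378, 286 and 238 in S+P C4, then 230.1, 161, 228 and 163 in S+P C5, and 138, 93.6, 77.9 and 84.5 in S+P C7. S+P C5 lay below all libraries of the groups other than S+P C7, and S+P C7 lay below S+P C5 in every library.

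The means of Smad7 -44.9 kb ran from Naive (591 ± 33.5, SD, n = 3) through N+P C5 (529.9 ± 60.9, n = 3), N+P C1 (518 ± 15.5, n = 3), Sensitized (471 ± 44, n = 4), S+P C4 (342 ± 101, n = 4) and S+P C5 (195 ± 38.8, n = 4) to S+P C7 (98.5 ± 27, n = 4). The S+P C5 value was 2.40-fold below Sensitized (-1.26, SE 0.18, adjusted p = 6.87e-10; -1.18 without Sensitized replicates 3 and 4) and the S+P C7 value 4.74-fold below it (-2.25, SE 0.19, adjusted p = 5.88e-28; -2.16 without them). Sensitized minus Naive was -0.32 (SE 0.19, adjusted p = 0.277), S+P C4 minus Sensitized -0.49 (SE 0.18, adjusted p = 0.103), and S+P C5 minus S+P C4 -0.77 (SE 0.19, adjusted p = 0.0011), none of them called. S+P C7 fell below S+P C5 (-0.98, SE 0.20, adjusted p = 9.09e-05), a call that without S+P C5 replicate 1 or S+P C7 replicate 3 came to -0.89 and -0.90, below the fold limit in size. The S+P C5 value also fell against N+P C5 (-1.43, SE 0.20, adjusted p = 1.39e-11).

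At Smad7 43.1 kb, signal was lower in Sensitized too. Smad7 43.1 kb, downstream of the gene (chr18:75542935-75543945), held 908, 969.7 and 809 normalized reads in Naive, 359.9, 312, 568 and 489.8 in Sensitized, 544, 535, 257 and 408 in S+P C4, then 208, 147, 169.8 and 179 in S+P C5, and 149.7, 69.8, 109 and 172 in S+P C7. It was lower in all Sensitized than in all Naive libraries, and lower again in S+P C5 and S+P C7. It fell in Sensitized against Naive (-1.05, SE 0.24, adjusted p = 0.000276; -1.41 without Sensitized replicates 3 and 4) and in S+P C5 against Sensitized (-1.29, SE 0.23, adjusted p = 1.26e-06; -0.92, adjusted p = 0.0069, without them). It fell 3.92-fold in S+P C5 against N+P C5 (-1.97, SE 0.25, adjusted p = 1.05e-13).

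Smad7 -62.5 kb, between genes (chr18:75437332-75438462), held 818, 836 and 826 normalized reads in Naive, 363, 402, 643 and 556 in Sensitized, 289, 229.6, 208 and 174 in S+P C5, and 177, 170.2, 166 and 138 in S+P C7. Neither S+P subset overlapped Sensitized. It fell in S+P C7 against Sensitized (-1.60, SE 0.22, adjusted p = 1.7e-11; -1.24 without Sensitized replicates 3 and 4) and in S+P C5 (-1.12, SE 0.21, adjusted p = 7.13e-06), where it came to -0.76 (adjusted p = 0.021) without them. Against S+P C4 it fell by 0.95 on the log2 scale (SE 0.22, adjusted p = 0.000411), and came to -0.74, -0.83 and -0.84 without S+P C4 replicate 1, S+P C4 replicate 2 and S+P C5 replicate 4.

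Smad7 -151.7 kb was a member that opened. It lay in an intron of Dym, the gene upstream (chr18:75348374-75349070), and held 66.1, 87.5 and 85.2 normalized reads in Naive, 32.1, 63.9 and 50.9 in N+P C1 and 50.3, 46.6 and 44.5 in N+P C5. It held 324, 239, 130.1 and 109 in Sensitized, 177, 469, 532 and 465 in S+P C4, then 231, 458, 174 and 257 in S+P C5, and 384, 601, 509 and 596 in S+P C7. Every library that had met the graft lay above every library that had not.

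Smad7 -151.7 kb rose in Sensitized against Naive (1.33, SE 0.38, adjusted p = 0.00463; 1.81 without Sensitized replicates 3 and 4) and 5.91-fold in S+P C5 against N+P C5 (2.56, SE 0.39, adjusted p = 8.18e-10). In S+P C5 against Sensitized the difference was 0.48 (SE 0.34, adjusted p = 0.294), with overlapping values. It was called in S+P C7 against Sensitized (1.38, SE 0.34, adjusted p = 0.000314), which without Sensitized replicates 3 and 4 came to 0.89 (adjusted p = 0.0565). Its calls in S+P C4 against Sensitized (1.04, SE 0.34, adjusted p = 0.0579) and S+P C7 against S+P C5 (0.91, SE 0.34, adjusted p = 0.0913) were both lost in edgeR (adjusted p = 0.107 and 0.131). The first was also lost with only the groups compared (1.05, adjusted p = 0.296), and the second with total-count size factors (0.90) and loess offsets (0.89), just below the fold limit. Without Sensitized replicates 3 and 4 the first was 0.56 (adjusted p = 0.461) and not called, and the second was 0.91 (adjusted p = 0.0263). The first was also lost without any of 6 single libraries (values 0.84 to 1.14: S+P C4 replicates 2, 3 and 4 and Sensitized replicates 2, 3 and 4) and the second without any of 6 (values 0.73 to 0.92: S+P C5 replicates 1, 3 and 4 and S+P C7 replicates 2, 3 and 4).

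The called Smad7 peaks outside the naming rule were at 6.1, 52.3, 87.9 and 122.1 kb. Smad7 52.3 kb fell in S+P C5 (-0.98, SE 0.20, adjusted p = 5.4e-05) and S+P C7 (-1.37, SE 0.21, adjusted p = 1.3e-09) against Sensitized, the first lost without Sensitized replicate 3 (-0.82) or without Sensitized replicates 3 and 4 (-0.63, adjusted p = 0.0567), where the S+P C7 value was -1.02. Smad7 6.1 kb and 122.1 kb fell in S+P C7 against Sensitized (-0.92, SE 0.17, and -0.93, SE 0.25; -1.01 and -1.28 without Sensitized replicates 3 and 4). Both calls sat near the fold limit and were lost below it in size without S+P C7 replicate 1, S+P C7 replicate 4 or Sensitized replicate 2 (-0.87, -0.84 and -0.84 at 6.1 kb and -0.78, -0.79 and -0.73 at 122.1 kb), and that at 122.1 kb also without Sensitized replicate 1 (-0.84). Smad7 87.9 kb, in an intron of Ctif, rose in S+P C5 against N+P C5 (0.91, SE 0.26, adjusted p = 0.00177), a call lost without S+P C5 replicate 2 (0.80) and without replicate 1 or 3 of N+P C5 (0.88 and 0.86). None of the 16 Smad7 peaks was called opening in S+P C5 against Sensitized.

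**Figure D4:**
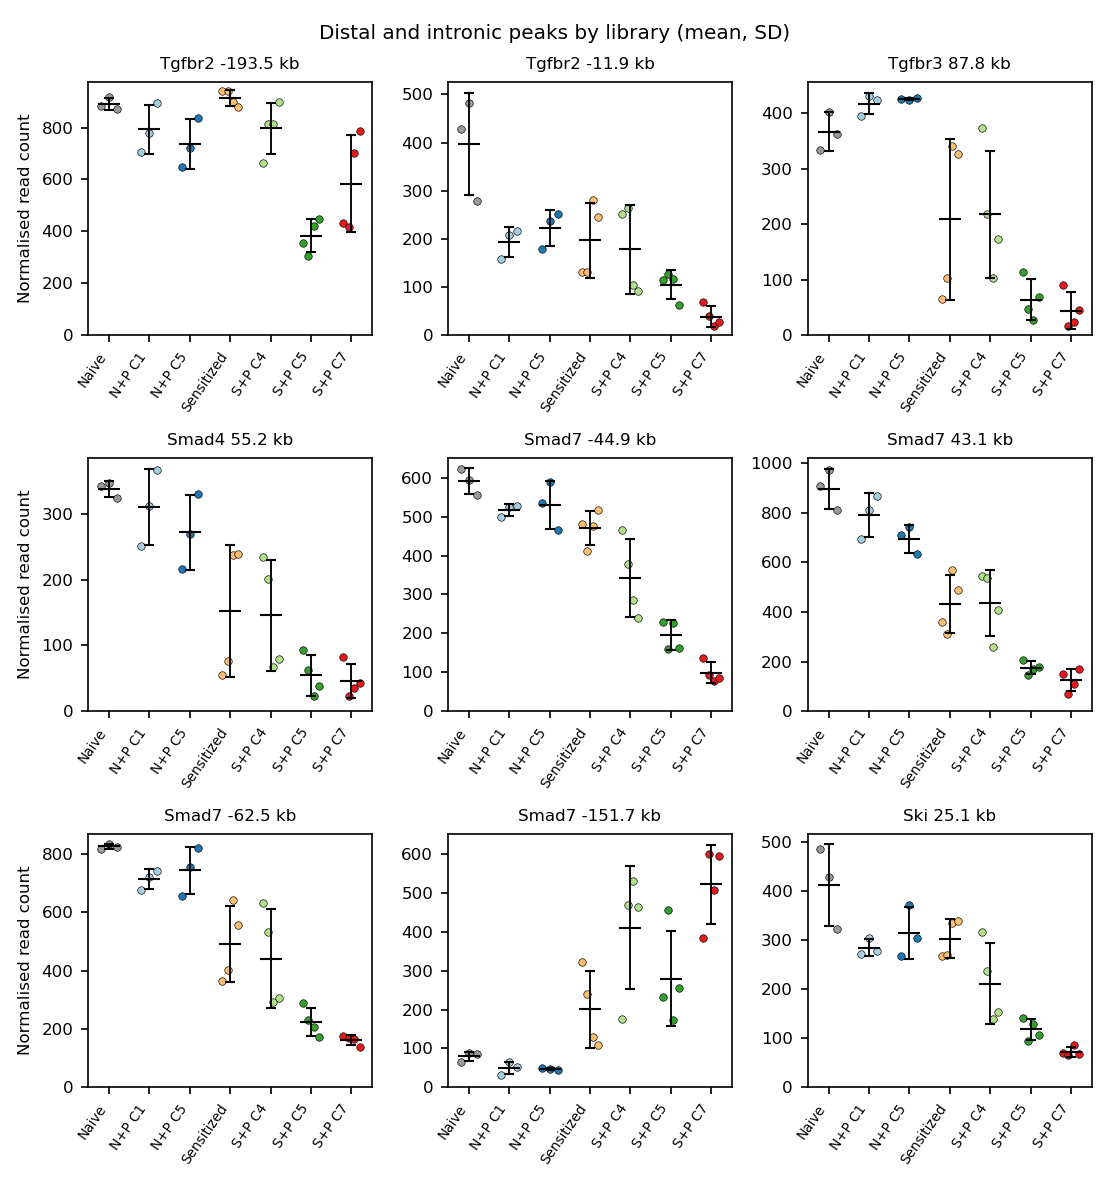
Normalized read count (vertical axis, from 0) in each library (points) at the 9 named peaks called in at least 4 of the 10 comparisons, by group, with the group mean and SD as bars. Tgfbr2 -193.5 kb is lowest in S+P C5, Smad7 -44.9 kb and Ski 25.1 kb are lowest in S+P C7, Sensitized splits into low and high pairs at Tgfbr3 87.8 kb, and Smad7 -151.7 kb is higher in the 4 groups that had a graft.

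Of the 8 peaks of the corepressor gene Ski, 3 were called, all in introns. The Ski promoter (chr4:155307415-155308371) held 740.2 ± 134 normalized reads (SD, n = 4) in Sensitized and 749 ± 77.4 (n = 4) in S+P C5, a difference of 0.01 (SE 0.13, adjusted p = 0.948). Ski 25.1 kb (chr4:155282180-155282734) held 485, 429 and 321 in Naive, 271, 304 and 277 in N+P C1, 267, 370.1 and 304 in N+P C5, 267, 268, 335 and 338 in Sensitized, 316, 236, 139 and 153 in S+P C4, then 142, 94.9, 128 and 106 in S+P C5, and 69.7, 64.7, 86.2 and 67.4 in S+P C7. S+P C5 and S+P C7 did not overlap with each other or with Sensitized, Naive or N+P libraries.

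Ski 25.1 kb fell 2.54-fold in S+P C5 (-1.35, SE 0.21, adjusted p = 1.58e-08; -1.17 without Sensitized replicates 3 and 4) and 4.22-fold in S+P C7 (-2.08, SE 0.22, adjusted p = 2.1e-18; -1.90 without them) against Sensitized. It fell in S+P C5 against N+P C5 (-1.40, SE 0.23, adjusted p = 1.42e-08). S+P C7 lay below S+P C5 by -0.73 (SE 0.23, adjusted p = 0.0271), under the fold limit.

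Ski 54.0 kb (chr4:155253068-155253940) held 404, 478, 426 and 433 normalized reads in Sensitized, 296, 353, 240.5 and 226 in S+P C4, then 323, 384, 324 and 301 in S+P C5 and 225, 291, 244 and 171 in S+P C7. All 3 S+P subsets lay below Sensitized. Only S+P C7 passed the fold limit (-0.92, SE 0.17, adjusted p = 7.35e-07; -0.94 without Sensitized replicates 3 and 4), and without S+P C7 replicate 4 or without Sensitized replicate 2 it did not (-0.79 and -0.87). Ski 13.5 kb (chr4:155293537-155294511) held 175, 204, 368 and 321 in Sensitized, 122, 126, 131 and 89.6 in S+P C7, 183, 178, 158 and 119 in S+P C5 and 321, 504 and 368 in N+P C5. It fell in S+P C7 against Sensitized (-1.20, SE 0.27, adjusted p = 7.63e-05; -0.70 and not called without Sensitized replicates 3 and 4) and in S+P C5 against N+P C5 (-1.32, SE 0.29, adjusted p = 2.85e-05).

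Skil, which encodes SnoN, had no called peak. Its promoter (chr3:31147322-31150496) held 2414, 2652, 1825 and 1984 normalized reads in Sensitized, 1634, 2086, 2070.5 and 1794 in S+P C5 and 1382, 2073, 2124 and 1728 in S+P C7. The groups overlapped, and the difference in S+P C7 was -0.28 (SE 0.13, adjusted p = 0.0558). The other 2 Skil peaks differed by -0.10 and -0.41 in S+P C7 against Sensitized.

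Over the 25 libraries, the 5 non-member peaks most like Smad7 -44.9 kb by Pearson's r of log2 normalized counts (plus 1) were Bach2 52.4 kb (0.980), Siah1a -51.8 kb (0.979), Abhd2 27.9 kb (0.976), Fbxl21 -15.1 kb (0.969) and Ifng 192.7 kb (0.966). Bach2 is a transcriptional repressor of effector differentiation in lymphocytes, and Ifng encodes interferon gamma. Among members, Ski 25.1 kb was nearest (0.965), followed by Smad7 52.3 kb (0.944), Smad7 -62.5 kb (0.943) and Tgfbr2 -118.6 kb (0.935). These points share their libraries and groups, and r is given as a description.

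In the group peak lists the authors made, 41 of the 52 members overlapped the list of Naive, 35 that of N+P C1, 34 that of N+P C5, 41 that of Sensitized, 13 that of S+P C4, 34 that of S+P C5 and 29 that of S+P C7. In order, 62.6%, 62.9%, 62.2%, 71.1%, 27%, 82.9% and 63.9% of all peaks did. Thus 65.4% of members against 82.9% of all peaks were in the S+P C5 list, and 78.8% against 71.1% in the Sensitized list. 10 members were in every list. The lists pool the libraries of a group and carry no replicate error.

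A list of 54 further genes of the TGF-beta family pathway had 52 peaks at 26 genes (28 genes had none). In Sensitized against Naive 7 opened and 0 closed (13.5% called, against 8.62% of all peaks). Against Sensitized, 2 opened and 0 closed in S+P C4 (3.85%, against 0.858%). S+P C5 had 4 opening and 3 closing peaks (13.5%, against 6.74%), and S+P C7 had 5 opening and 9 closing (26.9%, against 11.9%). In S+P C5 against N+P C5, 7 opened and 5 closed (23.1%, against 17.2%). No peak was called in N+P C1 or N+P C5 against Naive by DESeq2, where 13 and 13 had an unadjusted p under 0.05 (25% in both, against 19% and 17.5% of all peaks). Within S+P, 1 opened and 2 closed in S+P C7 against S+P C5 (5.77%, against 2.38% of all peaks). In S+P C5 against S+P C4, 3 opened and 1 closed (7.69%, against 5.12%). The interaction had 4 upward and 3 downward calls (13.5%, against 5.97%). No test compared these shares, and shares outside promoters were not computed for this list. Without Sensitized replicates 3 and 4, Sensitized against Naive had 8 opening (9.44% of all peaks) and 3 closing (5.73%). Against Sensitized, S+P C4 then had none of either kind (0.924% and 1.38%). S+P C5 had 3 opening and 3 closing (2.16% and 1.09%), and S+P C7 had 3 opening and 12 closing (2.03% and 4.93%). In that fit 1 peak opened in N+P C5 against Naive (0.473%), and the interaction had 1 upward (1.4%) and 0 downward calls (0.954%). Against Sensitized the median of these 52 peaks was -0.11 in S+P C5 (members -0.28), and that of S+P C7 was -0.34 (members -0.35).

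The following peaks of that list were picked after their values were seen, and the last value in each bracket is that without Sensitized replicates 3 and 4. Nedd4l, a ubiquitin ligase that acts on Smads and receptors, had an intron peak at 219.6 kb that rose from 21.9 ± 4.17 normalized reads (SD, n = 4) in Sensitized to 384 ± 139 (n = 4) in S+P C5 (4.13, SE 0.37, adjusted p = 9.96e-25; 3.97). With loess offsets this difference was 2.11. In N+P C5 the peak held 23.4 ± 10.7 (n = 3), and S+P C5 minus N+P C5 was 4.02, but -0.01 (adjusted p = 0.983) with loess offsets. Its promoter fell in S+P C7 against Sensitized (-1.20, SE 0.13, adjusted p = 1.86e-18; -1.07), from 747 ± 108 (n = 4) to 324 ± 33.5 (n = 4). Tgif1, a corepressor of Smad complexes, had a peak at -34.5 kb that rose in S+P C5 against Sensitized (1.56, SE 0.27, adjusted p = 5.5e-07; 1.19). Id2, an inhibitor of E proteins and a TGF-beta target, had a peak at -58.4 kb that rose in S+P C5 (1.38, SE 0.32, adjusted p = 0.000345; 0.83 and not called with loess offsets; 0.88, not called) and S+P C7 (1.78, SE 0.32, adjusted p = 4.88e-07; 1.29). Pmepa1, a TGF-beta-induced inhibitor of Smad activation, had a peak at -73.2 kb that fell in S+P C5 (-1.15, SE 0.22, adjusted p = 1.42e-05; -0.83, not called) and S+P C7 (-1.23, SE 0.23, adjusted p = 1.16e-06; -0.91). Ldlrad4, another inhibitor of Smad phosphorylation, had an intron peak at 34.4 kb that fell in S+P C7 (-1.96, SE 0.31, adjusted p = 7.06e-09; -1.37). Another Ldlrad4 intron peak, at -49.7 kb, rose in the same comparison (0.98, SE 0.24, adjusted p = 0.000248; 0.67, not called), and this call was also lost with loess offsets (0.80), without S+P C7 replicate 4 (0.83) and without Sensitized replicate 3 (0.82). The Acvr2a promoter, at an activin type II receptor gene, fell in S+P C7 (-1.09, SE 0.17, adjusted p = 2.15e-09; -0.80, not called), whereas no member promoter was called.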

How the data were processed

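Paired ATAC-seq reads of 25 libraries in 7 groups were processed by the authors, whose notes name cutadapt 3.4, Bowtie2 2.2.9, Picard 2.21.8, Genrich 0.6.1, bedtools 2.27.1 and deepTools, with GRCm39. The deposited table holds raw counts per merged peak, not scaled or filtered. The deposited group peak lists, combined over the libraries of a group with ChIP-R, carry a score, used here only for membership. All columns mapped to a sample.

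Counts were fitted with DESeq2 1.42.0 (R 4.3.3) in 1 model of all 25 libraries with no term but the group. Calls took the limits of the study's methods, 0.1 for the adjusted p and 0.9 for the size of the log2 fold change. Fold changes were not shrunken. edgeR 4.0.16 quasi-likelihood tests, other size factors, loess offsets, filters and left-out libraries were the alternatives. On simulated counts for S+P C5 against Sensitized over 13527 peaks, 95% of 100 peaks changed by a log2 of 1 had an adjusted p below 0.1 in the right direction. For a change of 2 it was 100% of 100, and 46 unchanged peaks also passed. This check applied no fold limit, so these are not calls as defined above. Its unchanged peaks had 1 mean in all libraries, without the split seen among Sensitized libraries. Comparisons that share Naive or Sensitized libraries are not independent. No library was counted as a duplicate, since chi-square divided by its degrees of freedom was at least 2.81 between replicates. The labels name individual samples and no batch, and 3000 to 50000 cells entered a library.

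Named peaks were the promoter peak of each gene and up to 4 further called peaks with the smallest adjusted p. The likeness ranking used the peak with the smallest adjusted p of all. The members and lists were chosen with earlier results of these data known. The S+P libraries share numbers in their column names, which name no mouse. The values printed for comparisons within S+P come from the fit without pairs, and a block of replicate numbers was an alternative. Same-numbered libraries correlated at 0.522 to 0.771 between S+P C7 and S+P C5 and at 0.103 to 0.572 between S+P C5 and S+P C4. An unmatched pair, S+P C5 replicate 2 and S+P C4 replicate 3, reached 0.44. Between S+P C4 and S+P C7, which were not compared, the range was 0.0639 to 0.666. The block of replicate numbers kept the counts of 4 called members in S+P C7 against S+P C5 and 6 in S+P C5 against S+P C4. N+P C1 and N+P C5 also share such numbers (0.108 to 0.4) but were not compared with each other. The groups of the other comparisons share only a number. Printed coordinates are 1-based. Reads are not independent molecules beyond duplicate removal, and depth limits low peaks most in the shallowest library.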

Additional observations from a re-analysis of the deposited data

Results flagged for a closer look

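Among 80 checks for a library far from the others of its group, 3 stood out, and chance flags about 1 in 20. The Tgfbr1 promoter held 1569 normalized reads in S+P C4 replicate 1, the shallowest library, where the other 3 held 1026 to 1085. The same promoter held 939.8 in S+P C5 replicate 2, below 1047 to 1052 in the others. The Smad4 promoter held 769 in S+P C7 replicate 3, below 843 to 856 in the others.

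The difference of S+P C5 from Sensitized was not that of N+P C5 from Naive, by the interaction term of the DESeq2 fit, at 7 named peaks. No PD1 or CD73 gate is named for Sensitized and Naive, so pregnancy and the gate cannot be told apart in it. Downward differences on the log2 scale were -0.97 at Tgfbr2 -193.5 kb (SE 0.25, adjusted p = 0.00443), -1.90 at Tgfbr3 87.8 kb (SE 0.74, adjusted p = 0.05), -1.10 at Smad7 -44.9 kb (SE 0.28, adjusted p = 0.00353), -0.92 at Smad7 43.1 kb (SE 0.35, adjusted p = 0.0445), -0.97 at Smad7 -62.5 kb (SE 0.32, adjusted p = 0.025) and -0.96 at Ski 25.1 kb (SE 0.32, adjusted p = 0.0244). The upward difference was 1.24 at Smad7 -151.7 kb (SE 0.54, adjusted p = 0.0811). Without Sensitized replicates 3 and 4, Tgfbr2 -193.5 kb (-1.01, adjusted p = 0.0228) and Smad7 -44.9 kb (-1.02, adjusted p = 0.0407) were still called, and the other 5 came to -0.58 (Tgfbr3), -0.56 (Smad7 43.1 kb), -0.60 (Smad7 -62.5 kb), 0.75 (Smad7 -151.7 kb) and -0.78 (Ski 25.1 kb). Tgfbr2 -193.5 kb was also lost below the fold limit without N+P C5 replicate 3 (-0.87) and without S+P C5 replicate 2 (-0.89). Smad7 -44.9 kb was called under every alternative. Leaving out 1 library also ended the call at Tgfbr3 87.8 kb (Naive replicate 1 or 2, N+P C5 replicate 3, Sensitized replicate 3 or 4, with values of -1.98 to -1.56), at Smad7 43.1 kb (Naive replicate 3, N+P C5 replicate 2, S+P C5 replicate 2, Sensitized replicate 3 or 4, -0.88 to -0.76), at Smad7 -62.5 kb (N+P C5 replicate 3, S+P C5 replicate 4, Sensitized replicate 3, -0.89 to -0.81) and at Ski 25.1 kb (Naive replicate 3, N+P C5 replicate 2, S+P C5 replicate 2, Sensitized replicate 4, -0.90 to -0.80). At Smad7 -151.7 kb, leaving out any 1 of 8 libraries ended it (0.90 to 1.35: Naive replicates 1 and 2, every N+P C5 replicate, S+P C5 replicate 2, Sensitized replicates 3 and 4), as did edgeR (1.24, adjusted p = 0.103) and loess offsets (0.90, adjusted p = 0.191). Total-count size factors ended that at Smad7 43.1 kb (-0.88).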

How the results depend on the processing

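Of 53 calls of named peaks, 27 held under every alternative, 26 were lost under at least 1 and 0 reversed. The low-count filter kept all 13527 peaks and gene-body assignment added no member, so both gave the same values as reported. Member calls under alternatives that moved a count by over 1.5 times were as follows. In Sensitized against Naive (5) the replicate block gave 3 and leaving out Sensitized replicates 3 and 4 gave 12. In N+P C1 against Naive (0) there were 2 with the independent filter off, 2 with total-count size factors, 2 with only the groups compared, 1 with the replicate block and 2 without Sensitized replicates 3 and 4. In S+P C4 against Sensitized (1) there were 0 at an adjusted p under 0.05, 0 with edgeR, 0 with only the groups compared and 2 without Sensitized replicates 3 and 4. Without those 2 libraries there were 5 in S+P C5 against Sensitized (10) and 2 in the interaction (7). Leaving out each replicate in turn gave 2 to 8 in Sensitized against Naive, 0 to 3 in N+P C1, 0 to 1 in N+P C5, 0 to 1 in S+P C4, 8 to 12 in S+P C5, 15 to 18 in S+P C7, 12 to 15 in S+P C5 against N+P C5, 1 to 4 in S+P C7 against S+P C5, 4 to 10 in S+P C5 against S+P C4 and 3 to 10 in the interaction. The cause of these shifts was not tested. Of single libraries, those that moved a count by over 1.5 times were Naive replicate 2 or Sensitized replicate 2 (2 calls in Sensitized against Naive), Naive replicate 1 or Sensitized replicate 1 (3), Sensitized replicate 3 (8), Naive replicate 3 (3 in N+P C1 and 1 in N+P C5), S+P C4 replicates 2, 3 and 4 and Sensitized replicates 2, 3 and 4 (0 in S+P C4), S+P C4 replicate 4 (10 in S+P C5 against S+P C4), S+P C5 replicate 1 or S+P C7 replicate 3 (1 in S+P C7 against S+P C5), S+P C7 replicate 2 or 4 (2 there), and, in the interaction, N+P C5 replicate 3, S+P C5 replicate 2, Sensitized replicate 3 or Sensitized replicate 4 (3) and N+P C5 replicate 2 (4). Outside the comparisons within S+P, same-numbered libraries of the groups compared correlated at -0.759 to 0.363 and share only a number. The replicate block moved no other count of calls by over 1.5 times. Depth was lowest in S+P C4 replicate 1 (2430890 counts).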
